A study of Mus musculus with 6 samples.

Results

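A group of 7 genes that encode organic anion carriers of the cell membrane was followed in endothelial cells of the mouse cerebellum with and without the receptor Frizzled4. These 7 genes were Slco1c1, Slco1a4, Slco2b1, Slco2a1 and Slco3a1 of the Slco family and Slc22a8 and Slc22a6 of the Slc22 family. They were chosen by name, with earlier results of these data known. Every probe set that the platform annotation assigns to 1 of these symbols alone was used, which gave 16 of the 45037 probe sets tested and 7 of 18193 named genes. The cells came from Fz4-/- mice and from wild-type mice at postnatal day 16, both of mixed gender on a C57Bl6/129 mixed background, and were captured with magnetic beads coated with an antibody to PECAM, an endothelial surface protein. Each genotype gave 3 preparations, each read on 1 Affymetrix expression array, so that the number of arrays limits the precision. The labels do not state whether a preparation came from 1 animal or from pooled animals, and p-values therefore measure only the spread between these samples. The comparison concerned the lasting effect of losing Frizzled4, the endothelial receptor for Norrin and for some Wnt proteins.

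Organic anion transporters move negatively charged molecules such as hormones, conjugated steroids, bile acids, prostaglandins and acidic metabolites across membranes. Brain capillaries form the blood-brain barrier, where Slco carriers let thyroid hormone and other anions pass between blood and brain while Slc22a8 helps to clear organic anions from the brain. Slco1c1 carries the prohormone thyroxine, Slco1a4 carries conjugated steroids, bile acids and many drugs, Slco2b1 carries steroid sulfates, Slco2a1 is the prostaglandin transporter, and Slco3a1 has a broad substrate range that includes prostaglandins and thyroxine. Slc22a8 and Slc22a6, also called Oat3 and Oat1, are anion exchangers best known from the kidney tubule and also present in choroid plexus.

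Promoter sequences from RefSeq (build GRCm38.p6, 250 bases before to 50 after the transcript start) were given for 6 of the 7 genes, in 8 windows. The windows of the genes whose point estimates lay farthest from 0 are shown, Slco2a1 on the higher side and the chromosome 19 neighbours Slc22a8 and Slc22a6 on the lower side. Capitals mark matches, on either strand, to the 5 motifs searched, namely the TCF/LEF core CTTTGA, the Sox core ATTGT, the HNF1 half-site GTTAAT, the nuclear receptor half-site AGGTCA and the TATA box TATAAA. The windows lie at chr9:103008237-103008536 (+ strand) for Slco2a1, chr19:8592932-8593231 (+ strand) for Slc22a8 and chr19:8617746-8618045 (+ strand) for Slc22a6.
Slco2a1: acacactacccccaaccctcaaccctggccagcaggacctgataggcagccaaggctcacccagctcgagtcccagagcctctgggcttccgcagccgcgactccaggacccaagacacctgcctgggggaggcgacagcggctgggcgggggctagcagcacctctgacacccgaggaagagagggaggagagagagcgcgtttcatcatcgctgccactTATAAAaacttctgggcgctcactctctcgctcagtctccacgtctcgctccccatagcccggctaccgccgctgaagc
Slc22a8: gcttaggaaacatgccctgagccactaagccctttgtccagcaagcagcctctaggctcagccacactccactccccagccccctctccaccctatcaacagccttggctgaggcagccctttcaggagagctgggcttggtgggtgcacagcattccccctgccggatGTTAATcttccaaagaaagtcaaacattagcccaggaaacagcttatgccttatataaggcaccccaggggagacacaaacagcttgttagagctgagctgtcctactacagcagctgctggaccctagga
Slc22a6: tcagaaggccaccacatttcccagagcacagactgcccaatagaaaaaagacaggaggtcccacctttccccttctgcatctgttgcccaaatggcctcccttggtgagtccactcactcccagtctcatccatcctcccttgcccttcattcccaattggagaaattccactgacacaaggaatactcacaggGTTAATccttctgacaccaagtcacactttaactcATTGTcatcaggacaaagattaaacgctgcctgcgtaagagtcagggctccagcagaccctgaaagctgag

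The TATA box match of Slco2a1 starts 29 bases before the transcript start. Slc22a8 and Slc22a6 each hold 1 HNF1 half-site, 81 and 56 bases before the start, a motif found in 7.1% of all 32851 promoter windows of this length. HNF1 factors are known to drive both genes in the kidney. Slc22a6 also holds a Sox core, 21 bases before its start, and Slco1a4 holds 3, while 31% of all windows have at least 1. The TCF/LEF core, the end point of canonical Wnt signalling, was found in 0 of the 8 windows, against 16% of all windows, which says only that these letters are not in these stretches. AGGTCA was also found in 0 of 8 windows, against 16.3% of all windows, and TATAAA in those of Slco2a1 and Slco1c1, against 13.6%. Unlike that of Slco2a1, the Slco1c1 match lies after the transcript start, not before it. The motifs were chosen after the sequences had been read, and a match is a description, not a binding site.

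Values below are log2 expression after RMA, which removes background, equalises the arrays and gives 1 value per probe set. Array medians lay between 5.52 and 5.58 and lower quartiles between 3.46 and 3.64. Levels of different genes are not comparable on arrays, so differences between genotypes were taken within each probe set. Means and sums over a marker list were compared only between arrays, and a sum is weighted towards its brightest genes. Fzd4, the targeted gene, read 3.04, 4.03 and 4.0 on Fz4-null replicates 1 to 3, against 10.80, 10.20 and 10.88 on wild-type replicates 1 to 3. All 15 pan-endothelial markers were measured, with mean log2 levels over the list of 11.54 to 11.66 on the null arrays and 11.28 to 11.44 on the wild-type arrays. Fz4-null replicate 1 stood apart in markers of other cells. There the list mean, relative to wild type, was -2.45 for meningeal fibroblasts and -2.77 for microglia and macrophages, whereas null replicates 2 and 3 lay between -0.58 and 0.50 for these 2 lists. Wild-type replicate 3 stood apart in choroid plexus markers, where their mean exceeded that of all wild-type arrays by 1.34. In such preparations fewer cells of a type and less RNA per cell cannot be told apart.

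None of the 16 probe sets passed an adjusted p of 0.05 in limma, against 0.0111% of all probe sets. At an unadjusted limma p under 0.05 there were 5, against 4.46% of all probe sets, 3 of them higher in the null arrays (all of Slco2a1, beside 2.08% of all probe sets) and 2 lower (1 each of Slc22a8 and Slc22a6, beside 2.37%). The count dropped to 3 when null replicate 1 or wild-type replicate 2 was left out, and to 2 when null replicate 2 or wild-type replicate 3 was. In 5 probe sets the 3 null arrays lay all on one side of the 3 wild-type arrays, against 9.27% of all probe sets. The null arrays were above in 2, beside 4.08% of all probe sets, and below in 3, beside 5.18%. By the brightest probe set of each gene, the groups did not overlap in 3 of 7 genes, against 9.54% of all named genes. Slco2a1, Slco1a4 and Slco2b1 had point estimates above 0 and the other 4 genes below 0. The median log2 difference (Fz4-null minus wild type) over the 7 genes was -0.28, beside 0.01 over all named genes. The labels do not state that arrays of the same number belong together, so differences between same-numbered arrays depend on that numbering. The replicate numbers, which both genotypes share, were also fitted as a block. With the replicate block 0 of 16 passed, against 0% of all probe sets, and 7 had an unadjusted p under 0.05, against 8.7% of all probe sets.

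**Figure D1:**
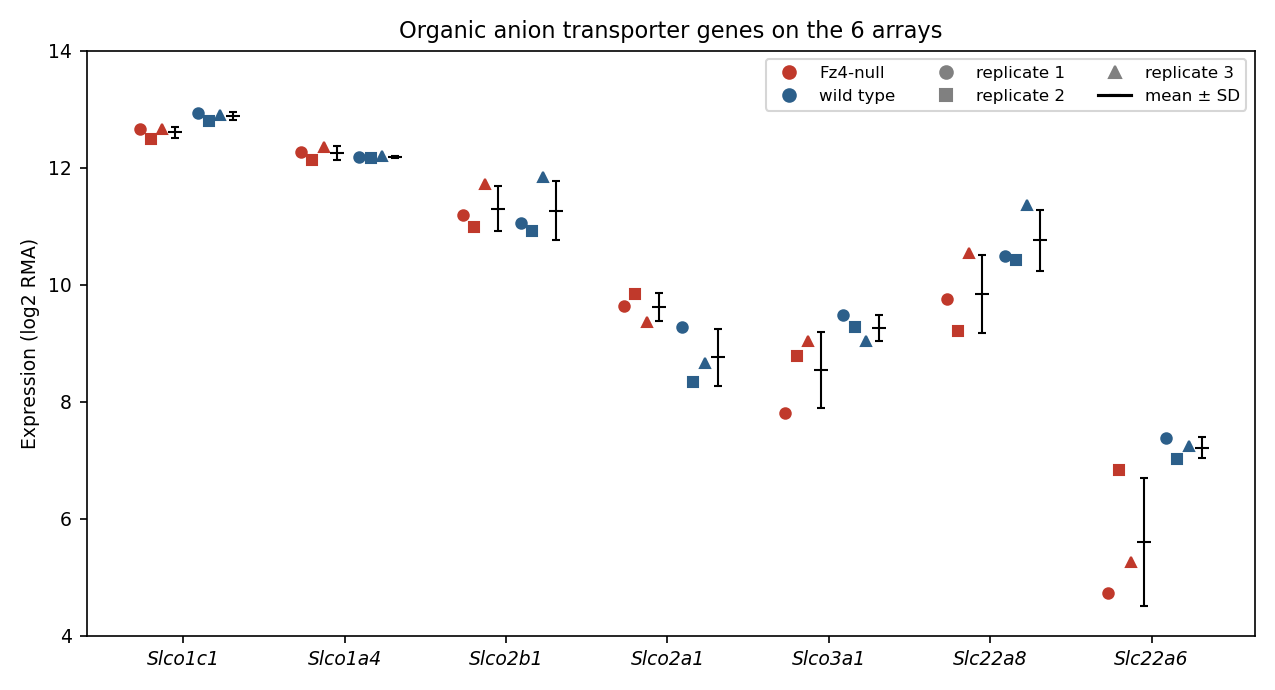
Log2 RMA expression (vertical axis) of the brightest probe set of each of the 7 genes on the 3 Fz4-null arrays (red) and the 3 wild-type arrays (blue), with symbols for the replicate number and black bars for mean ± SD (n = 3). The groups stand apart for Slco1c1, Slco2a1 and Slc22a6, overlap for the other 4 genes (non-overlap held for 9.54% of all named genes), and Slco1a4 spans only 0.23 over all 6 arrays. Heights of different genes are not comparable.

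Slco2a1, which takes prostaglandins up into cells and so ends their signal, read higher in the null arrays on all 4 of its probe sets. Its brightest probe set read 9.64, 9.84 and 9.37 on null replicates 1 to 3, against 9.28, 8.33 and 8.66 on wild-type replicates 1 to 3. The lowest null array lay just above the highest wild-type array. The group levels were 9.61 ± 0.24 in the null arrays and 8.76 ± 0.48 in wild type (SD, n = 3 each), a log2 difference of 0.86 (SE 0.28, 95% interval 0.19 to 1.53, limma adjusted p = 1.00). This is 1.81-fold, with an interval of 1.14 to 2.89.

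The probe set 1444242_at of Slco2a1 gave the largest positive difference among the 16. It read 7.97, 8.06 and 7.28 on null replicates 1 to 3, against 6.82, 6.50 and 5.75 on wild-type replicates 1 to 3. Again no null array reached down to a wild-type array. The log2 difference was 1.42 (SE 0.34, 95% interval 0.60 to 2.24, limma adjusted p = 0.802), or 2.67-fold.

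The third probe set of Slco2a1, 1420914_at, read 7.23, 7.54 and 6.67 on the null arrays, against 6.73, 6.44 and 5.72 on the wild-type arrays. Null replicate 3 lay just under wild-type replicate 1, so these groups overlapped. Its log2 difference was 0.85 (SE 0.34, limma adjusted p = 1.00). Leaving out wild-type replicate 3 gave 0.56. The dimmest, 1450032_at, read 5.41, 5.80 and 4.0 on the null arrays, against 5.07, 4.62 and 4.07 on the wild-type arrays, with a log2 difference of 0.48 (SE 0.50) that ranged from 0.11 to 1.01 with 1 array left out. It was 0.22 when wild-type replicate 3 was dropped, 0.31 when null replicate 1 was, 0.11 when null replicate 2 was and 1.01 when null replicate 3 was. On both arrays numbered 3 it stood little above the array lower quartiles.

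Between same-numbered arrays, Slco2a1 differed by 0.36, 1.51 and 0.71 on its brightest probe set and by 1.16, 1.56 and 1.54 on 1444242_at. Arrays numbered 3 gave the lowest value of their own group on 3 of the 4 probe sets in wild type and on all 4 in the null arrays. Leaving out 1 array moved the difference between 0.65 and 1.12 for the brightest probe set and between 1.11 and 1.66 for 1444242_at. Relative to wild type, the pan-endothelial list stood at 0.32, 0.20 and 0.21 on the 3 null arrays and Slco2a1 at 0.88, 1.08 and 0.61. The part of endothelial content in the Slco2a1 difference was not tested.

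**Figure D2:**
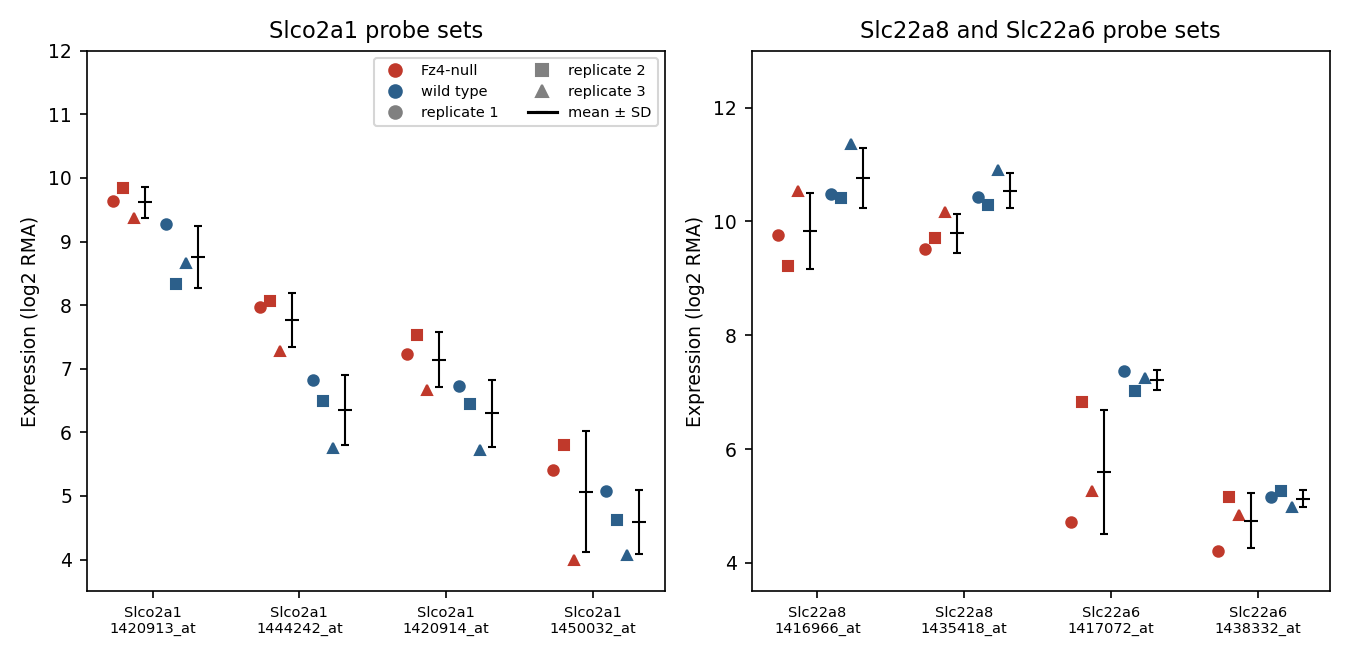
Log2 RMA expression (vertical axis) on Fz4-null (red) and wild-type (blue) arrays for the 4 probe sets of Slco2a1 (left panel) and the 4 probe sets of Slc22a8 and Slc22a6 (right panel), with mean ± SD in black (n = 3). The null means of Slco2a1 are higher on all 4 probe sets, and those of Slc22a8 and Slc22a6 are lower on all 4.

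Slc22a8, an exchanger that helps to clear organic anions from the brain, read lower in the null arrays on both of its probe sets. The brighter one read 9.76, 9.21 and 10.54 on null replicates 1 to 3, against 10.49, 10.42 and 11.37 on wild-type replicates 1 to 3. Null replicate 3 lay above wild-type replicates 1 and 2, so the groups overlapped, yet each null array was below the wild-type array of its own number, by -0.73, -1.20 and -0.82. The log2 difference was -0.92 (SE 0.41, 95% interval -1.89 to 0.05, limma adjusted p = 1.00), or 0.53-fold.

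The other Slc22a8 probe set, 1435418_at, read 9.51, 9.70 and 10.17 on the null arrays, against 10.43, 10.30 and 10.90 on the wild-type arrays. Here all null arrays lay below all wild-type arrays. The log2 difference was -0.75 (SE 0.26, 95% interval -1.36 to -0.14, limma adjusted p = 1.00). With the replicate block the SE was 0.17 for the brighter probe set and 0.15 for the other, with adjusted p = 0.437 and 0.454 in limma.

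Choroid plexus epithelium, which also expresses Slc22a8, was represented by 12 of 14 listed markers, and all 12 read lower in the null arrays. Their summed linear level was 1659 to 2372 on the null arrays and 4992 to 14604 on the wild-type arrays. That sum is weighted towards the brightest marker, Ttr. Its log2 level was 9.40 to 10.52 on the null arrays and 11.76 to 13.50 on the wild-type arrays. The list mean, which weighs the 12 markers equally in log2, was 5.01 to 5.37 and 5.93 to 8.02. Of the 12 markers, 2 had mean levels below the array lower quartile. Wild-type replicate 3 was the highest array both for that list and for Slc22a8. Without it the Slc22a8 difference was -0.62 on the brighter probe set and -0.57 on the other, and without null replicate 2 the brighter one read -0.61. Among the null arrays, replicate 2 was highest for the list (mean 5.37) but lowest for the brighter Slc22a8 probe set (9.21). On the other probe set replicate 1 was the lowest null array (9.51), as it was for the list (5.01). The part of choroid plexus RNA in the Slc22a8 difference was not tested.

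Slc22a6, the neighbour of Slc22a8 on chromosome 19 and the classical renal anion exchanger, had the largest negative difference among the 7 genes. Its brighter probe set read 4.72, 6.82 and 5.26 on null replicates 1 to 3, against 7.38, 7.02 and 7.24 on wild-type replicates 1 to 3. The wild-type arrays lay close together, and the null arrays were spread over about 2 log2 units below them. The group levels were 5.60 ± 1.09 in the null arrays and 7.21 ± 0.18 in wild type (SD, n = 3 each), a log2 difference of -1.61 (SE 0.51, 95% interval -2.83 to -0.39, limma adjusted p = 1.00), or 0.33-fold.

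Null replicate 2 was only -0.20 below wild-type replicate 2, while replicates 1 and 3 differed by -2.66 and -1.98. The difference was -1.17 without null replicate 1 and -2.22 without null replicate 2. The meningeal list covers fibroblasts and arachnoid cells of the brain surface. It stood at -2.45, 0.50 and -0.58 from the wild-type mean on null replicates 1, 2 and 3, the order of Slc22a6. The microglia list (-2.77, 0.00 and -0.15) and the choroid plexus list (-1.68, -1.31 and -1.57) had that order too. The other marker lists had another order, such as the astrocyte list (-1.70, 0.21 and 0.30). Slc22a6 itself stood at -2.49, -0.39 and -1.96, so the sizes differed from those of the lists. On wild-type replicate 3 the choroid plexus list stood at 1.34 and Slc22a6 at 0.03. Of the 12 measured meningeal markers 11 read lower in the null arrays, and 1 had a mean level below the array lower quartile. Their summed levels were 2482 to 17126 on the null arrays and 13257 to 17748 on the wild-type arrays. The part of meningeal RNA in the Slc22a6 difference was not tested, and neither was that of the choroid plexus or of microglia. The dimmer probe set of Slc22a6 differed by -0.39 (SE 0.27), with null arrays at 4.22 to 5.17 and wild-type arrays at 4.97 to 5.26. It differed by -0.12 without null replicate 1 and by -0.60 without null replicate 2.

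Slco1c1, the thyroxine carrier of brain capillaries, has 1 probe set and differed little but evenly. It read 12.66, 12.49 and 12.66 on null replicates 1 to 3, against 12.94, 12.81 and 12.90 on wild-type replicates 1 to 3. All null arrays lay below all wild-type arrays, by -0.28, -0.31 and -0.24 between same-numbered arrays. The log2 difference was -0.28 (SE 0.16, 95% interval -0.66 to 0.11, limma adjusted p = 1.00), or 0.82-fold, with an interval of 0.63 to 1.08. Leaving out 1 array kept it between -0.31 and -0.22.

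Slco1a4 lies in the same Slco1 gene cluster on chromosome 6. It read 12.27, 12.12 and 12.36 on the null arrays, against 12.18, 12.17 and 12.20 on the wild-type arrays. The wild-type values fell inside the range of the null values. Its log2 difference of 0.07 (SE 0.16, limma adjusted p = 1.00) had a 95% interval of -0.32 to 0.45, which is 0.80-fold to 1.37-fold, and it lay between 0.01 and 0.13 with 1 array left out.

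Slco2b1 differed between replicate numbers more than between genotypes. Its brightest probe set read 11.19, 10.99 and 11.73 on null replicates 1 to 3, against 11.05, 10.91 and 11.84 on wild-type replicates 1 to 3. The name of this probe set, 1433933_s_at, marks possible reading of several transcripts. The arrays numbered 3 were the highest of both groups, and the groups overlapped throughout. The log2 difference was 0.03 (SE 0.32, 95% interval -0.72 to 0.79, limma adjusted p = 1.00). The probe set 1454777_at gave 10.38, 10.42 and 11.01 on the null arrays, against 10.22, 10.24 and 11.18 on the wild-type arrays, and a difference of 0.06 (SE 0.33).

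The sign of both Slco2b1 values turned when null replicate 3 or either of wild-type replicates 1 and 2 was left out, down to -0.18 for the brightest. The block on replicate number reduced the SE to 0.14 for the brightest, with adjusted p = 0.966. Microglia and macrophages are a known site of Slco2b1 expression. On null replicate 1, where the microglia list lay at -2.77 and all 12 of its markers were measured, Slco2b1 lay at -0.08 from its wild-type mean. The part of microglial RNA in the Slco2b1 level was not tested. The remaining probe set, 1458171_at, read 3.61 to 4.03 on the null arrays and 3.76 to 4.07 on the wild-type arrays, near the lower quartiles, with a difference of -0.13 (SE 0.20) that ranged from -0.23 to -0.02 with 1 array left out.

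Slco3a1 read lower in the null arrays on all 3 probe sets, with overlapping groups on each. Its brightest probe set read 7.81, 8.78 and 9.04 on null replicates 1 to 3, against 9.47, 9.27 and 9.04 on wild-type replicates 1 to 3. Null replicate 1 was the lowest array, and the arrays numbered 3 did not differ to 2 decimals. The log2 difference was -0.72 (SE 0.34, 95% interval -1.53 to 0.09, limma adjusted p = 1.00), and it was -0.35 without null replicate 1. The other probe sets gave -0.41 (SE 0.42) and -0.66 (SE 0.40), and without null replicate 1 they gave 0.03 and -0.27. The first gave -0.18 without wild-type replicate 3 and -0.66 without null replicate 3. On null replicate 1 the lists of meningeal, astrocyte, microglial, mural and granule neuron markers were all more than 1 log2 unit below the wild-type mean. The choroid plexus list was so on all 3 null arrays. Its wild-type mean was raised by replicate 3, with wild-type replicates 1 to 3 at -0.58, -0.75 and 1.34 from that mean. The part of all those cells in the Slco3a1 difference was not tested.

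**Figure D3:**
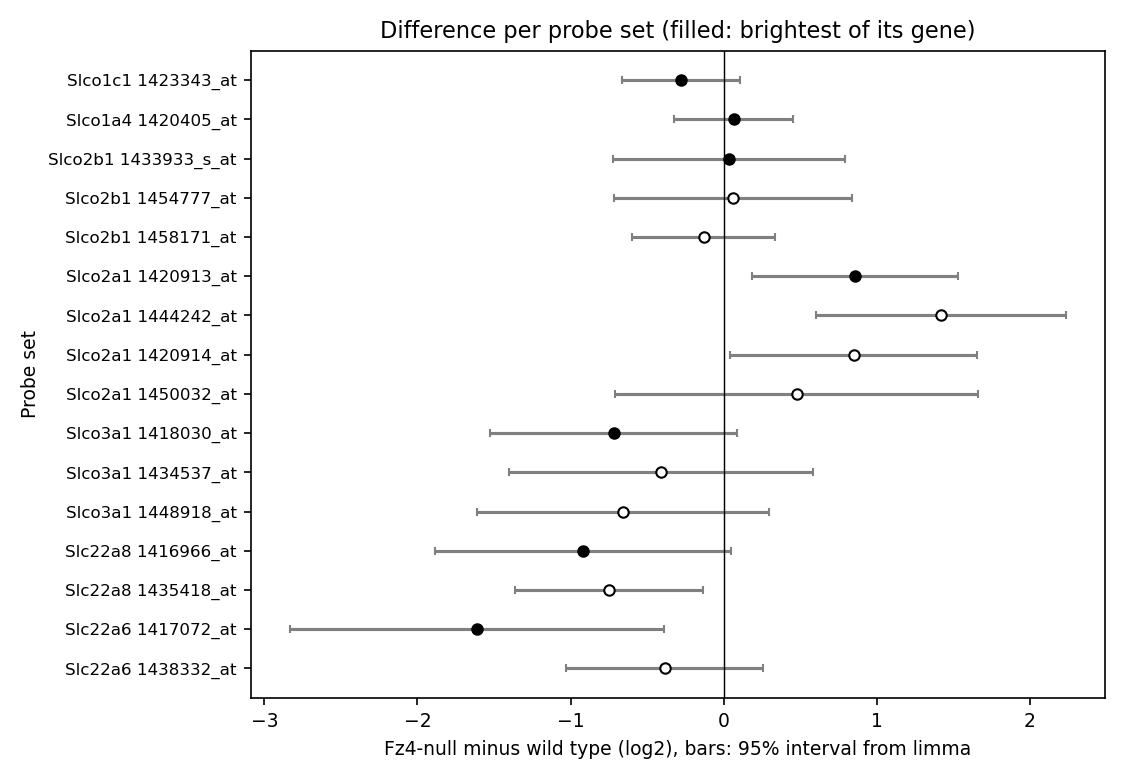
Log2 difference, Fz4-null minus wild type (horizontal axis), with its 95% interval from limma, for the 16 probe sets (rows), filled for the brightest probe set of each gene. The intervals of 3 Slco2a1 probe sets lie above 0, and those of Slc22a8 1435418_at and Slc22a6 1417072_at lie below 0. No adjusted p passed 0.05.

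The array profiles of the 7 genes were then set beside those of the marker lists. The brighter probe set of Slc22a8 was lowest on null replicate 2, the null array on which Slc22a6 was closest to wild type. The other Slc22a8 probe set, 1435418_at, was lowest on null replicate 1 (9.51), where both Slc22a6 probe sets were lowest too. Over the 6 arrays the centred profiles of Slc22a8 and Slc22a6 lay 1.03 log2 units apart (root mean square), which placed Slc22a6 at rank 16897 of 18192 genes in likeness to Slc22a8 and Slc22a8 at rank 6798 in likeness to Slc22a6. Slco1c1, at 0.55, and Slco2b1, at 0.51, lay closer to Slc22a8. This distance is not scaled to the span of a gene over the arrays. That span was 0.45 for Slco1c1, 0.93 for Slco2b1 and 2.66 for Slc22a6. Correlations of these genes with Slc22a8 over the 6 arrays were, in that order, 0.81, 0.67 and 0.32. Ranks over 6 arrays with 2 genotypes describe these arrays only.

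**Figure D4:**
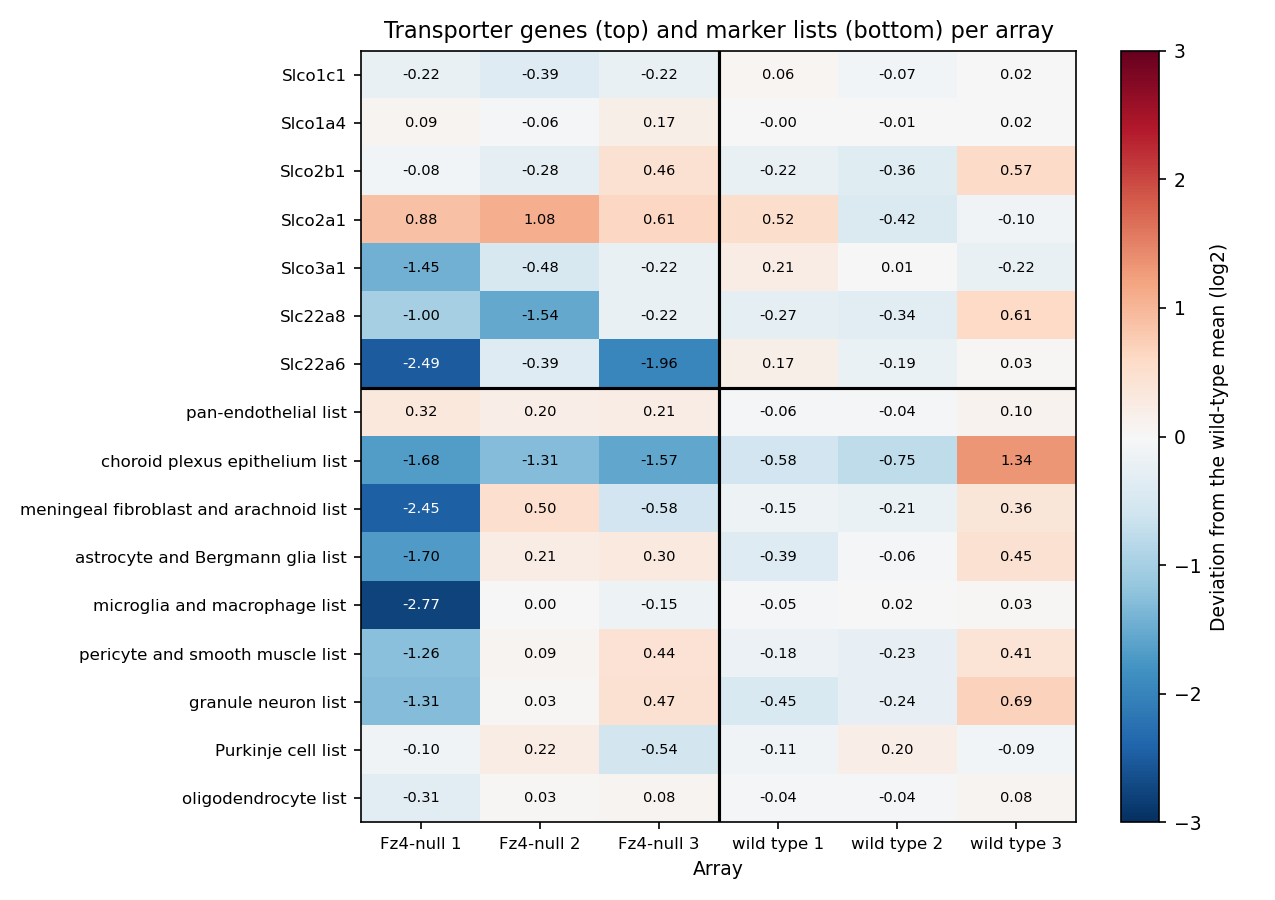
Deviation from the wild-type mean (log2, colour and printed values) on each of the 6 arrays (columns, Fz4-null on the left) for the brightest probe set of the 7 transporter genes (top rows) and for the mean of each cell type marker list (bottom rows). Fz4-null replicate 1 is low in meningeal, astrocyte, microglial, mural and granule neuron markers, all 3 null arrays are low in choroid plexus markers, and wild-type replicate 3 is high in choroid plexus markers.

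For each member spanning more than 1 log2 unit over the 6 arrays, the nearest genes by this distance were named. For Slco2a1 they were Acvrl1 (0.14), an endothelial receptor for BMP ligands, Stc2 (0.17), a secreted stanniocalcin, and Cfb (0.19), complement factor B. Actg2 (0.13), a smooth muscle actin, Kcp (0.15) and the lipid kinase gene Pip5k1b (0.15) were nearest to Slc22a8. Nearest to Slc22a6 were the heparan sulfate sulfotransferase gene Hs6st2 (0.19), the RNA-binding protein gene Rbm47 (0.24) and Tenm4 (0.30). The leukotriene receptor gene Cysltr2 (0.11), the GABA receptor subunit gene Gabrb2 (0.14) and the anion exchanger gene Slc4a3 (0.15) were nearest to Slco3a1. These neighbours were picked from 18192 genes over 6 arrays.

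The other 29 measured Slco and Slc22 genes showed no call in limma, with 0 past an adjusted p of 0.05, beside 0.022% of all named genes, and 2 at an unadjusted p under 0.05, both lower in the null arrays, beside 4.6% of all named genes. Their median log2 difference was -0.22, and it was -0.04 without wild-type replicate 3. Only 7 of these 29 genes had a mean level above the median over all probe sets, while all 7 members did. The lowest p values belonged to Slc22a16, a carnitine transporter, with -0.62 (SE 0.25), to Slco1a5, an anion carrier of choroid plexus and gut, with -1.04 (SE 0.43), and to Slco1a1, a carrier of liver and kidney, with -0.77 (SE 0.38), each at limma adjusted p = 1.00. Slco1a5 gave -0.58 without wild-type replicate 3 and -0.11 on its other probe set, and Slco1a1 gave -0.37 without wild-type replicate 1 and -0.22 on its other probe set. Slco1a5 read 3.75, 2.91 and 3.48 on the null arrays, against 3.89, 4.03 and 5.35 on the wild-type arrays. These are dim values, below or little above the lower quartiles on all arrays but wild-type replicate 3. Slc22a16 was dim too, at 3.20 to 3.45 on the null arrays and 3.49 to 4.29 on the wild-type arrays.

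Thyroid hormone reaches its nuclear receptors after entry, conversion and binding. Of 14 listed genes of entry and handling 11 had a probe set of their own, 0 of them passed in limma in either direction, against 0.022% of all named genes, and 2 had an unadjusted p under 0.05, both lower in the null arrays, against 4.6%. Their median log2 difference was -0.17. Ttr, the plasma and choroid plexus carrier of thyroxine, read 9.40, 10.52 and 10.45 on the null arrays, against 12.54, 11.76 and 13.50 on the wild-type arrays. Its difference was -2.48 (SE 0.50, limma adjusted p = 0.580), and its 3 other probe sets gave -3.10, -3.34 and -2.52. The names of all these Ttr probe sets mark possible reading of several transcripts. Ttr is itself a choroid plexus marker.

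Dio2, the deiodinase that turns thyroxine into active hormone, read 6.14, 7.05 and 6.65 on the null arrays, against 7.83, 7.64 and 8.31 on the wild-type arrays. All null arrays were lower, with a log2 difference of -1.32 (SE 0.30, limma adjusted p = 0.739), and its 2 dimmer probe sets gave -0.20 and -0.65. The astrocyte list, a known site of Dio2, stood at -1.70, 0.21 and 0.30 relative to wild type on the 3 null arrays, and the part of astrocyte RNA in the Dio2 difference was not tested. Slc7a5 and Slc3a2, whose products form an amino acid carrier that also takes up thyroid hormone, differed by 0.09 (SE 0.15) and 0.08 (SE 0.23).

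Of 13 listed thyroid hormone receptors, cofactors and targets 11 were measured, 0 passed in limma, against 0.022% of all named genes, and 3 had an unadjusted p under 0.05, all higher in the null arrays, against 4.6%. Thrsp, known as a hormone-responsive gene of liver and fat, read 8.35, 8.98 and 9.09 on the null arrays, against 6.83, 7.08 and 7.38 on the wild-type arrays. The groups stood well apart, at a log2 difference of 1.71 (SE 0.26, limma adjusted p = 0.379), or 3.28-fold. Its other probe sets gave 1.45 and 0.17. Thra, which encodes a thyroid hormone receptor, read 9.15 ± 0.23 in the null arrays and 8.66 ± 0.07 in wild type (SD, n = 3 each), a difference of 0.50 (SE 0.19, limma adjusted p = 1.00), and its other probe sets gave 0.25 and 0.37. The target Klf9 differed by 0.05 (SE 0.16), with its 6 other probe sets at -0.09 to 0.22. The median of the list was 0.05.

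Prostaglandins, the substrates of Slco2a1, are made, sensed and broken down by 19 listed genes, of which 17 were measured. None passed in limma, against 0.022% of all named genes, and 2 had an unadjusted p under 0.05, both lower in the null arrays, against 4.6%. The list median was -0.24. Ptges, which makes prostaglandin E from the product of cyclooxygenase, read 8.77, 9.59 and 9.03 on the null arrays, against 10.29, 10.54 and 10.04 on the wild-type arrays. All null arrays lay below all wild-type arrays, at a log2 difference of -1.16 (SE 0.27, limma adjusted p = 0.755), and the 2 other probe sets gave -0.94 and -1.10. Ptgfr, a prostaglandin F receptor, read 2.44, 5.19 and 4.09 on the null arrays, against 6.06, 6.01 and 5.86 on the wild-type arrays, at -2.07 (SE 0.63, limma adjusted p = 0.988), and it was lowest on null replicate 1, without which the difference was -1.34. Its 4 other probe sets gave -1.46, -0.69, 0.09 and 0.02. The cyclooxygenase gene Ptgs2 differed by -0.52 (SE 0.43), with -1.21 on its other probe set, and the breakdown enzyme gene Hpgd by -0.55 (SE 0.54), with -0.47 on its other probe set.

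**Figure D5:**
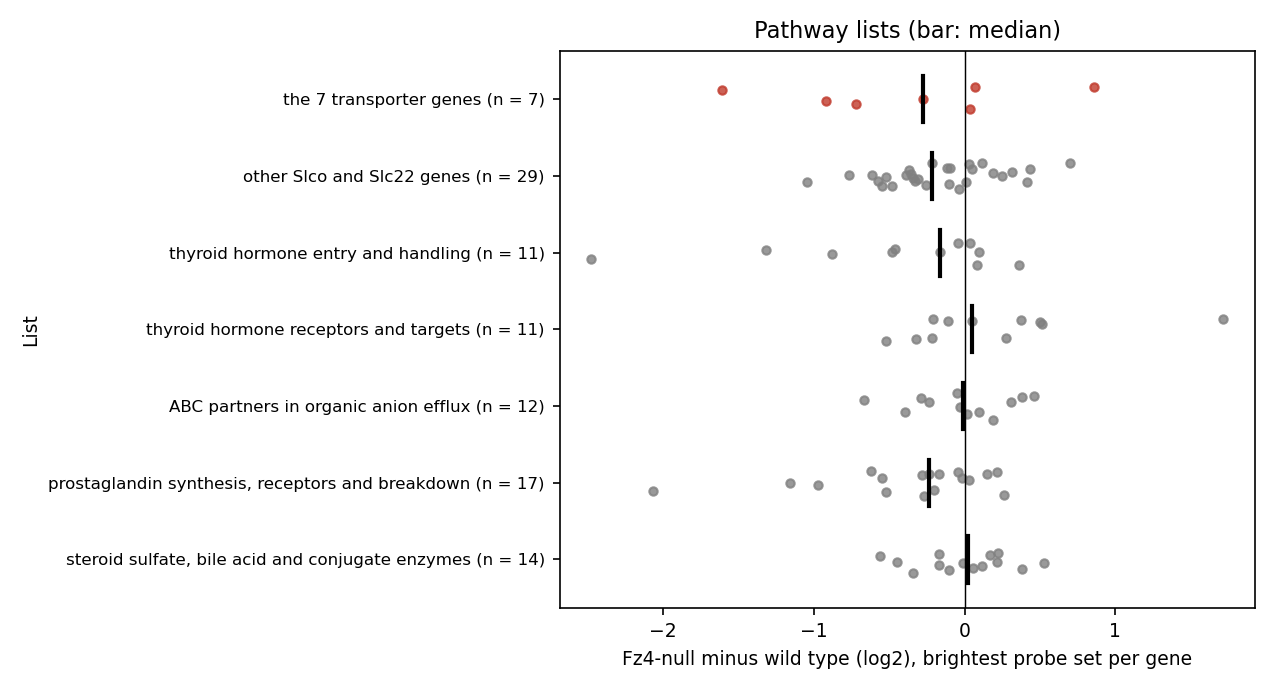
Log2 difference, Fz4-null minus wild type (horizontal axis), of the brightest probe set of each gene (points, spread vertically for legibility) in the 7 transporter genes and in each pathway list (rows), with a bar at the median. The medians lie between -0.28 for the transporters and 0.05 for thyroid hormone receptors and targets.

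ATP-driven pumps that share organic anions with these carriers showed no call, with 0 of 12 past an adjusted p of 0.05 in limma, 0 at an unadjusted p under 0.05, against 0.022% and 4.6% of all named genes, and a median of -0.01. The capillary pumps Abcg2 and Abcb1a differed by 0.10 (SE 0.16) and 0.01 (SE 0.18), and Abcc4, which exports prostaglandins and conjugates, by 0.19 (SE 0.25). The lowest p values belonged to Abcc10 (0.38, SE 0.19) and Abcc6 (-0.67, SE 0.54), which ranged from 0.24 to 0.48 and from -1.02 to -0.15 with 1 array left out (Abcc10 lowest without wild-type replicate 2, Abcc6 nearest 0 without wild-type replicate 3). Enzymes and nuclear receptors of steroid, bile acid and drug conjugation likewise had 0 of 14 measured genes past the adjusted threshold in limma and 0 at an unadjusted p under 0.05, against the same shares, with a median of 0.02. In that list Ahr, the aryl hydrocarbon receptor, differed by 0.53 (SE 0.25) and Nr1h4, the bile acid receptor, by -0.56 (SE 0.30). Without null replicate 2 they gave 0.29 and -0.31, and without wild-type replicate 3 Nr1h4 gave -0.37.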

How the data were processed

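Total RNA was extracted with Trizol and RNeasy and biotin-labelled, per the labels' protocols. The authors deposited log2 values made with RMA, per the submitters' processing notes, whose software and version were not given in the sources used here. Differences between dim probe sets can be understated by this method. Arrays have no library depth.

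Of 45101 probe sets, 64 controls were left out and 45037 tested. The platform annotation gave 1 symbol to 34945, several to 932 and none to 9160, and 34741 matched RefSeq (GRCm38.p6) by identifier. A gene was read from its brightest probe set, and the other probe sets of the 7 genes are given beside it. The test was that of limma 3.58.1 under R 4.3.3 (eBayes after lmFit, no covariate, two-sided, Benjamini-Hochberg over all probe sets). The fit was tested on simulated data with independent arrays, unlike the same-numbered arrays here, which deviated together. The genes, lists and tests were chosen with earlier results of these data known.

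Named genes were the 7 members, Fzd4, the lowest p values of each list (2, or 3 for the other family genes) and the 3 nearest profiles. Other genes were named after their values were seen.

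Same-numbered arrays deviated together (correlations 0.244, 0.303 and 0.574 over probe sets, minimum 0.1 for pairing), though null replicate 2 also did with wild-type replicate 1 (0.262) and null replicate 1 with wild-type replicate 2 (0.124). The block was fitted as an alternative. Alternatives covered normalization, filters on dim probe sets, variance estimation, array weights, probe set choice and left-out arrays.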

Additional observations from a re-analysis of the deposited data

How the results depend on the processing

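No probe set of the 7 genes passed an adjusted p of 0.05 in limma under any alternative run, nor at 0.1, and neither did any gene of the other family members and pathway lists under those run for them. The number of member probe sets with an unadjusted p under 0.05 was 5 and lay between 2 and 7 with 1 array left out. With both arrays numbered 3 left out it was 6, and with the replicate block 7. The number whose groups did not overlap was 5, and between 5 and 9 with 1 array left out, at 9 when null replicate 3 and 8 when wild-type replicate 3 was dropped.

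Of 429 alternative values for 29 probe sets and genes, 421 kept their direction and 8 turned. For Slco2b1 the brightest probe set ranged from -0.18 to 0.32 and 1454777_at from -0.14 to 0.38 with 1 array left out, and the mean of its 3 probe sets was -0.012. For Slco3a1, 1434537_at ranged from -0.66 to 0.034. The fit has 4 residual degrees of freedom, and 2 with the block. Signal over background could not be assessed, since no detection calls were used.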
